A study of Homo sapiens with 6 samples.

Results

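The genes described here are 10 human SET domain genes, grouped as KMT2 and SETD histone methyltransferases, and the poly(A) peaks that lie along them. They are KMT2A, KMT2B, KMT2C, KMT2D, KMT2E, SETD1A, SETD1B, SETD2, SETD5 and NSD1. A peak was taken when its summit lay in the annotated gene body or up to 4 kb past the 3′ end of the gene. Of the 200023 peaks of the list, 259 met this rule, and 201 of them had −log10 q of at least 5, the cutoff in the study's methods. The weakest peak kept had −log10 q of 5.02, and the strongest one left out had 4.94. Of the 199610 peaks of the list on chromosomes, 69.3% passed the same cutoff. All values below are from these 201 peaks.

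The data come from poly(A) 3′-sequencing of the human neuroblastoma line IMR-32, grown in culture. The 6 libraries were a DMSO group of 2, a THZ531 2 h group of 2 and a THZ531 6 h group of 2, with the compound at 400 nM in both. THZ531 binds covalently to CDK12 and CDK13, kinases that phosphorylate the tail of RNA polymerase II during elongation, and inhibits them, and DMSO is the solvent. The authors merged the reads and called 1 set of peaks, taken here to pool these 6 libraries, so a peak shows that a polyadenylated 3′ end may exist in some of these cells and does not show in which treatment. No value below compares DMSO with THZ531, and no value has a replicate error. The depth of each library is unknown.

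The proteins of these genes share a SET domain, the fold that in lysine methyltransferases moves a methyl group from S-adenosylmethionine to a lysine. KMT2A to KMT2D and SETD1A and SETD1B methylate lysine K4 of histone H3 at promoters and enhancers as the catalytic subunits of COMPASS-like complexes, which also hold WDR5, ASH2L, RBBP5 and DPY30. SETD2 and NSD1 methylate K36 of the same histone, SETD2 along transcribed gene bodies while bound to elongating RNA polymerase II. KMT2E and SETD5 are related to each other and carry a divergent SET domain, and methyltransferase activity is not assumed for them here. Several of these genes are known for mutations in neurodevelopmental disorders, and KMT2A for its fusions in leukemia. Cleavage and polyadenylation end a transcript, usually after a hexamer such as AATAAA a short way upstream of the cut, and a cut inside an intron or before the stop codon leaves an mRNA without the rest of the coding sequence.

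A few words are used throughout. Reads at the summit are the reads that pile up at the highest point of a peak, recovered from the deposited fold enrichment and −log10 p. They count distinct start positions if duplicates were removed, which is the peak caller's default, so tall peaks may be compressed. The 3′ edge is the edge of a peak nearest the 3′ end of its gene, where the cut is placed. In a wide peak the summit can lie far from this edge, and its reads may come from another cut. Internal peaks lie between the start and the stop codon of the canonical transcript, and terminal peaks lie after the stop codon and up to 600 bp past the canonical end. The list has no strand, so the strand of the gene is assumed for each peak, and a peak where a gene on the other strand also lies may belong to either.

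The tallest internal peaks came from unlike sequences, and the following windows are shown so that the signals at them can be read. Each window holds 60 bases before and 30 bases after the 3′ edge on the gene's strand in GRCh38, and capitals mark those of the 12 hexamers the study searched that lie wholly in the 60 bases before the edge. Hexamers that span or follow the edge are left in lower case. Hexamers before the edge were present at the tallest intronic peaks within the canonical transcripts of KMT2E (chr7:105022898-105022987), SETD5 (chr3:9403233-9403322), SETD2 (chr3:47135811-47135900, minus strand) and SETD1A (chr16:30971919-30972008).
KMT2E intron 1: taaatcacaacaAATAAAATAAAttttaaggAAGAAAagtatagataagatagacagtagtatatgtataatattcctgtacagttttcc
SETD5 intron 1: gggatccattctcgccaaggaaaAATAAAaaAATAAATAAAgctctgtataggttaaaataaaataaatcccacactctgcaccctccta
SETD2 intron 1: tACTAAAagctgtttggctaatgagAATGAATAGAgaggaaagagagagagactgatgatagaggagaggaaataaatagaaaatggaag
SETD1A intron 13: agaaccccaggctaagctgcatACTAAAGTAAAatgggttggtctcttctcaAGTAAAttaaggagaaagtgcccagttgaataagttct
The SETD5 window had 3 copies of AATAAA wholly before the edge, the nearest of them starting 25 bases before it. The KMT2E window had an AAGAAA 29 bases before the edge, with AATAAA further upstream. The SETD1A peak was 251 bp wide with its summit at chr16:30971760, far from the edge shown. No hexamer lay in the 100 bp ending at that summit, so the hexamers of this window may not belong to the summit reads.

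A further window is that of the tallest KMT2B peak, which lay in a coding exon (chr19:35720402-35720491).
KMT2B coding exon: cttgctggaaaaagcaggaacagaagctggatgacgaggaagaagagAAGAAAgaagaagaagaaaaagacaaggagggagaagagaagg
It is a purine-rich stretch of codons with an AAGAAA 13 bases before the edge, and the richest 25 bases within 50 bp either side of the edge held 18 A. The SETD5 window above also held at least 18 A in 25 bases, before its edge. An oligo(dT) primer can anneal to runs of A inside a transcript.

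The windows of the tallest intronic peaks of KMT2C (chr7:152430407-152430496, minus strand) and SETD1B (chr12:121804699-121804788) had no hexamer before the edge and no such A-rich stretch. The summits of both lay in the first intron of the gene, and the SETD1B window runs from that intron into the next exon. The KMT2C peak was 437 bp wide with its summit at chr7:152430626, so its window does not describe the sequence at the summit. At the KMT2C peak, 88.6% of the 31-base words in the 100 bp before the edge also occurred elsewhere in the genome, so its reads may be placed at more than 1 locus.
KMT2C intron 1: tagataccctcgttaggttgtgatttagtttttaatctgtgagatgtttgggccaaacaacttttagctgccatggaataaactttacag
SETD1B intron 1 and exon 2: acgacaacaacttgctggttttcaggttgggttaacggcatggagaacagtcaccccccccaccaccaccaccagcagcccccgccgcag

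For comparison, the tallest terminal peaks had a hexamer within 100 bp of the 3′ edge in every one of the 10 genes. It was AATAAA in KMT2A, KMT2B, KMT2C, KMT2D, KMT2E, SETD2, SETD5 and NSD1, at 16 to 51 bases before the edge. It was ATTAAA at 92 bases in SETD1A and TATAAA at 39 bases in SETD1B. The KMT2C and KMT2D peaks were 337 and 574 bp wide, so these distances hold for their edges and not their summits. Both also had a hexamer in the 100 bp ending at the summit. In SETD1B a CATAAA, also among the hexamers searched, lay nearer the edge and is left in lower case below. Short stretches around 4 of them are printed with the hexamer in capitals, from chr11:118525643-118525664 (KMT2A), chr7:152134930-152134953 (KMT2C, minus strand), chr16:30984638-30984661 (SETD1A) and chr12:121832612-121832635 (SETD1B).
KMT2A 3′ end: cacaaaAATAAAaaaaatattc
KMT2C 3′ end: tttacaAATAAAatattttacatc
SETD1A 3′ end: attgtgATTAAActttattgtaca
SETD1B 3′ end: aactttTATAAAgcaaaccataaa

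Transcripts of all 10 genes were detected, meaning that at least 1 annotated transcript end of the gene had a peak. Over all 20046 protein-coding genes, 64.0% were detected. By the canonical transcript, 161 of the 201 peaks (80.1%, 95% Wilson interval 74.0 to 85.0) were internal and 23 (11.4%, 7.75 to 16.6) were terminal. A further 11 peaks lay upstream of the canonical start, all of them in KMT2E, and 6 lay more than 600 bp past the canonical end. By the annotation of all transcripts of these genes, 112 peaks (55.7%, 48.8 to 62.4) were intronic, against 63.3% of the 123730 pairs of a peak and a detected gene. Another 59 (29.4%, 23.5 to 36.0) lay within 200 bp before to 600 bp after an annotated transcript end, against 21.9% of all pairs. Of these 59 transcript-end peaks, 8 were at the canonical end and 9 elsewhere in the last canonical exon, and 26 lay in canonical introns, where the annotation records short transcripts. The remaining peaks were 25 in exons, 13 of them in coding sequence, and 5 past the gene end. These intervals cover counting error only.

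**Figure D1:**
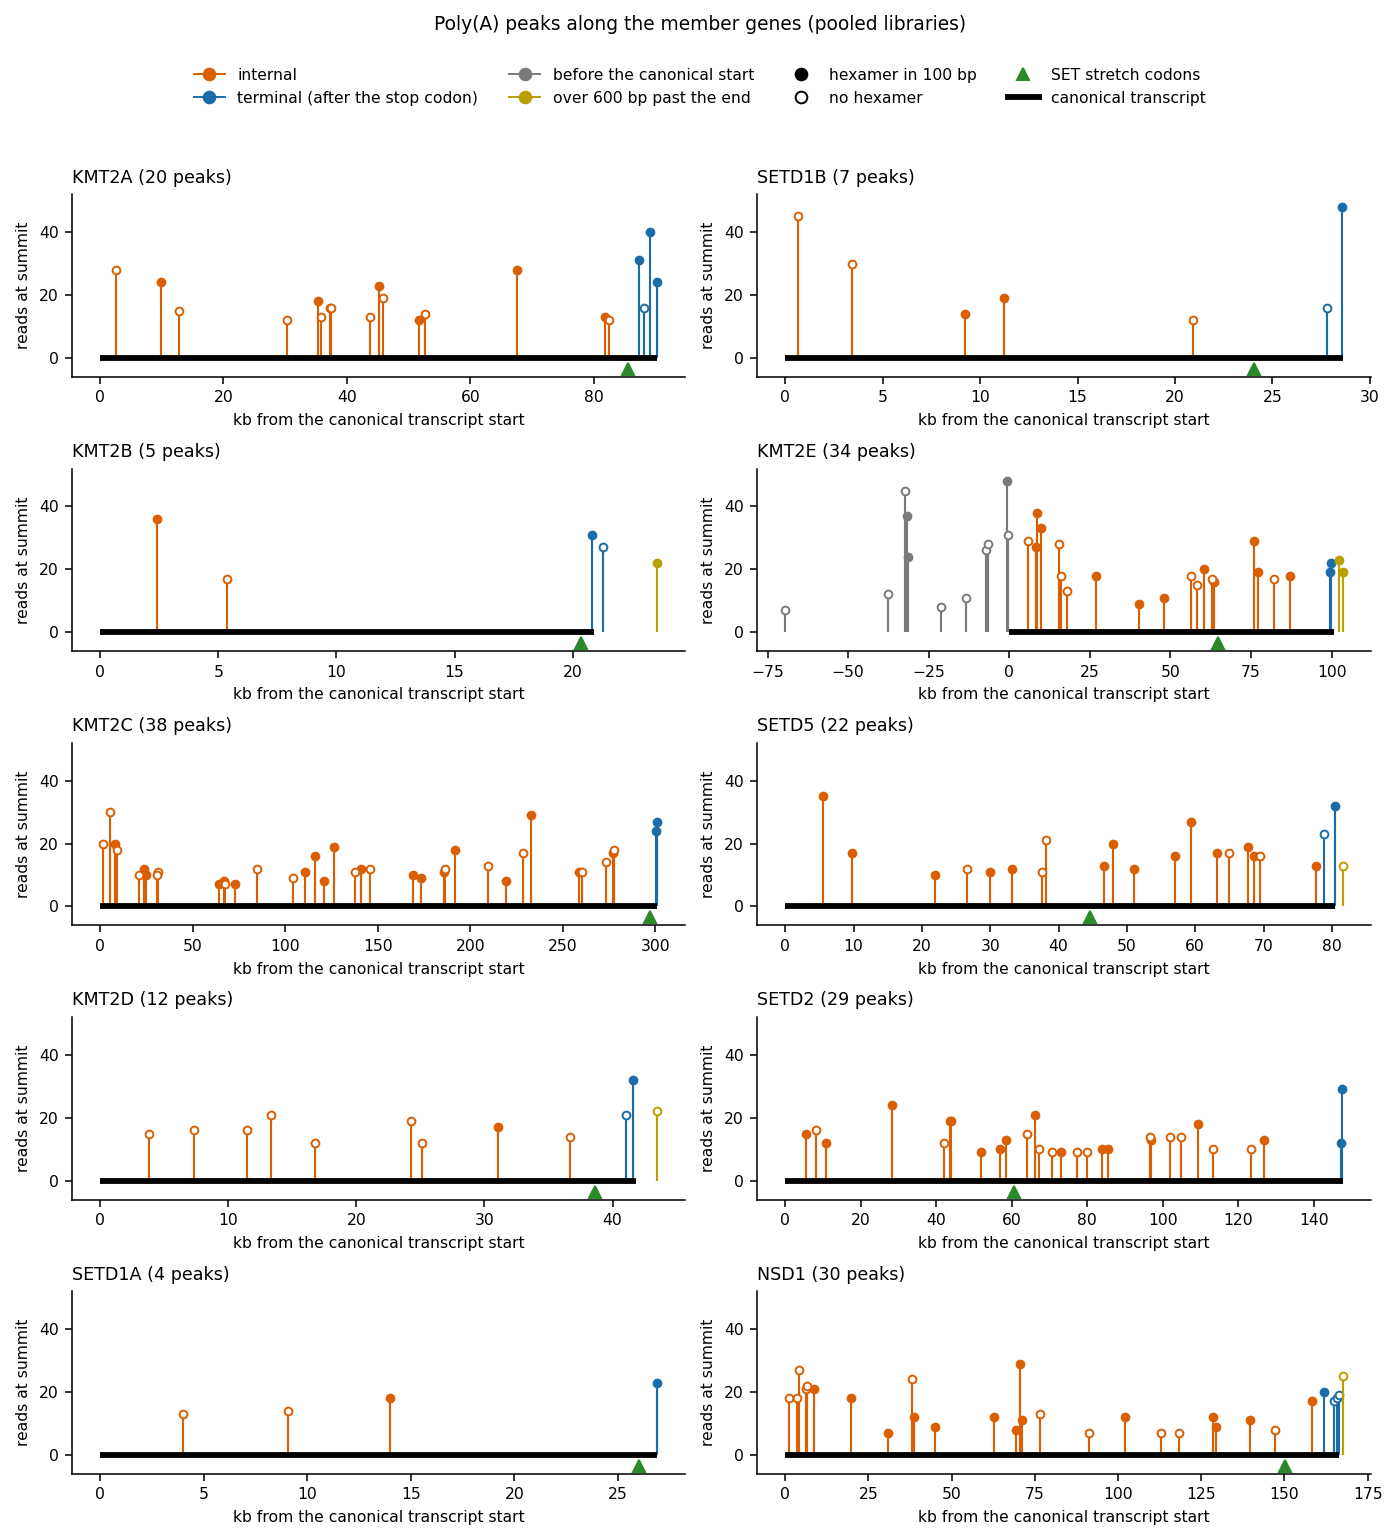
Every poly(A) peak of the 10 genes, with distance from the canonical transcript start in kb on the x axis and reads at the summit in the pooled libraries on the y axis. Colour gives the position, filled points hold a hexamer in the 100 bp before the 3′ edge, open points hold none, and the triangle marks the codons of the SET stretch. Internal peaks are spread along KMT2C, SETD2, SETD5 and NSD1, and KMT2E has 11 peaks before its canonical start.

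Internal peaks were lower than terminal ones on the whole, and single internal peaks were as tall as the gene's own end. The 161 internal peaks had a median of 14 reads at the summit, with quartiles of 11 and 18 and a highest value of 45. The 23 terminal peaks had a median of 23 reads, with quartiles of 19 and 30 and a highest value of 48. The tallest internal peak exceeded the tallest terminal peak in 5 of 10 genes, namely KMT2B, KMT2C, KMT2E, SETD5 and NSD1. The same held for 28.5% of the 12355 detected genes with a terminal peak. As a share of both peaks' reads, the tallest internal peak ranged from 39.6% in KMT2D to 63.3% in KMT2E. The 95% exact binomial interval of this share included 50% in all 10 genes, so none of these within-gene differences exceeded counting error. The tallest of many internal peaks was also set against the tallest of 1 to 4 terminal peaks, which favours the internal side. By the annotation of all transcripts, 9 of 10 genes had at least 1 intronic peak, against 77.9% of the 12834 detected genes. Intronic peaks exceeded the tallest transcript-end peak in KMT2C, KMT2D, KMT2E, SETD5 and NSD1, 5 of 10 genes, against 27.0% of detected genes. In KMT2D the peak of the last exon, classed as exonic, was taller than its tallest intronic peak, with 32 against 21 reads. The other measure, internal against terminal, was also read among detected genes of similar length (at least 0.8 times, and at most the inverse of that). Of those with a terminal peak, the tallest internal peak exceeded it in 51.2% for the length of KMT2C. This share was 24.8% for the length of KMT2B, so longer genes showed a taller internal peak more often. For the lengths of the other members it ranged from 26.2% (SETD1A) to 44.2% (KMT2E). The intronic measure was set beside all detected genes only, whose median length was 35.0 kb against 86.0 kb in the members.

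**Figure D2:**
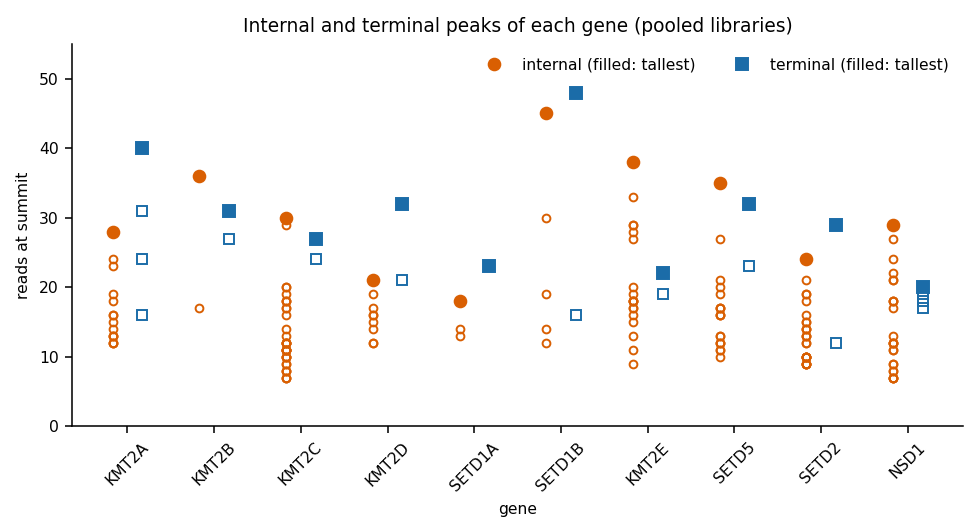
Reads at the summit (y axis) of every internal peak (circles) and terminal peak (squares) of each gene (x axis), pooled libraries, with the tallest of each kind filled. Filled circles lie above filled squares in KMT2B, KMT2C, KMT2E, SETD5 and NSD1, and open circles reach down to 7 reads in KMT2C and NSD1.

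KMT2A and KMT2B are the paralogs that bind menin through their N-terminal part. KMT2A (chr11:118436456-118526832, plus strand, 36 exons in its canonical transcript) had 20 peaks, 16 internal and 4 terminal. Its terminal peaks formed a series over the last exon with 31, 16, 40 and 24 reads at 87.35, 88.18, 89.09 and 90.25 kb from the start. The tallest of them (chr11:118525499-118525664, 12.3-fold over background, −log10 q 31.3) thus lay about a kilobase short of the annotated end, and 3 of the 4 had an AATAAA. Its tallest intronic peak (chr11:118446251-118446359, 7.35-fold, −log10 q 13.5) was in intron 1 with 24 reads. Internal peaks with 28 reads were present at 2.64 kb, at an annotated short transcript in intron 1, and at 67.59 kb in a coding exon after 68.7% of the coding sequence. By position, the first 11 peaks also lay in another protein-coding gene model on the same strand (ENSG00000285827), and the last 6 in the antisense TTC36-AS1.

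KMT2B (chr19:35717973-35738880, plus strand, 37 exons) is short and rich in GC, and it was the member with no intronic peak. Of its 5 peaks, the tallest (chr19:35720233-35720461, 13.5-fold, −log10 q 30.8) had 36 reads in a coding exon after 12.9% of the coding sequence. The other internal peak had 17 reads at an annotated short transcript in intron 6. The canonical end carried 2 peaks, with 31 reads (chr19:35738777-35738906, 8.58-fold, −log10 q 19.1) and 27 reads, and a further one with 22 reads lay 2.7 kb past it. The last 3 peaks also lay in IGFLR1, a gene on the other strand, so their reads may be shared with it.

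KMT2C and KMT2D are the pair that deposits monomethylation at enhancers, in complexes that hold KDM6A and NCOA6. KMT2C (chr7:152134922-152436644, minus strand, 59 exons) is the longest member at 301.7 kb and had the most peaks, 38, of which 36 were internal. Of these, 13 lay in intron 1, which makes up 27.1% of the intron length of the gene. The tallest intronic peak (chr7:152430437-152430873, 6.00-fold, −log10 q 13.3) was there, 5.38 kb from the start, with 30 reads. The tallest transcript-end peak (chr7:152202750-152203106, 15.5-fold, −log10 q 29.6) had 29 reads at 232.97 kb, at an annotated short transcript whose end lies in a canonical exon, after 27.1% of the coding sequence. The 2 peaks of the last exon had 24 and 27 reads, both with an AATAAA. Most other internal peaks of KMT2C were low, with a median of 11.5 reads over all 36. The KMT2C gene has near copies elsewhere in the genome, and at 5 of its peaks at least 90% of the 31-base words of the 100 bp window occurred at another place. A pseudogene, SEPTIN7P6, lay at 2 of the low peaks in intron 1.

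KMT2D (chr12:49018975-49060794, minus strand, 55 exons) had 12 peaks, 9 internal, 2 terminal and 1 past the end. Its internal peaks ranged narrowly from 12 to 21 reads, and 1 of the 9 had a hexamer. In introns the tallest (chr12:49047420-49047527, 8.24-fold, −log10 q 13.7) had 21 reads in intron 15. It had no hexamer, and 18 A in 25 bases downstream of its edge. Within 50 bp either side of the edge, the richest 25 bases held 25 A. In the 100 bp before the edge, 82.9% of the words in the count of copies also occurred elsewhere in the genome. The peak of the last exon (chr12:49018981-49019554) had 32 reads and an AATAAA, and its summit fell more than 200 bp before the annotated end, so it was classed as exonic. The tallest peak classed as a transcript end (chr12:49036331-49036604, 9.95-fold, −log10 q 15.4) therefore lay in intron 35, with 19 reads. With 0.366 intronic peaks per kb of intron, KMT2D was the densest member, against a median of 0.120 in genes of similar length. The peaks near its end also lay in DDN-AS1 on the other strand and in a protein-coding model on the same strand (ENSG00000288710). The one past the end lay in PRKAG1 as well, so the reads of all these peaks could not be assigned to 1 gene.

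SETD1A and SETD1B are the paralogs that carry out most trimethylation of K4 at promoters. SETD1A (chr16:30957294-30984664, plus strand, 19 exons) had the fewest peaks, 4. Its end (chr16:30984554-30984735, 14.1-fold, −log10 q 24.0) had 23 reads, and 3 intronic peaks had 13, 14 and 18 reads in introns 4, 8 and 13. The tallest of them (chr16:30971728-30971978, 7.69-fold, −log10 q 11.5) was the one with hexamers before its 3′ edge. At its end an unnamed gene model on the other strand (ENSG00000279196) also lay.

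SETD1B (chr12:121804009-121832656, plus strand, 17 exons) had the tallest end of the members, with 48 reads (chr12:121832504-121832656, 22.6-fold, −log10 q 54.7). Its tallest intronic peak (chr12:121804614-121804758, 5.37-fold, −log10 q 17.2) had 45 reads, with its summit 0.67 kb from the start in intron 1 and its 3′ edge past the start codon in exon 2. The other intronic peaks had 30, 14, 19 and 12 reads at 3.40, 9.22, 11.22 and 20.92 kb. Fold enrichment gave another picture than reads, since the local background recovered from the list was 7.56 reads at the first of these peaks and 1.17 reads at the end of the gene. The highest fold of an intronic peak was 7.39, for the 12-read peak, against 22.6 at the end.

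KMT2E and SETD5 are the members whose SET domain lies near the N terminus. KMT2E (chr7:104940943-105115019, plus strand, 27 exons) had 34 peaks, of which 19 were internal, 2 terminal, 11 upstream of the canonical start and 2 past the end. Of the upstream peaks, 10 also lay in long noncoding RNA genes on the other strand, LINC01004 or KMT2E-AS1. The tallest intronic peak by the annotation (chr7:105012834-105013439, 6.28-fold, −log10 q 21.2), with 48 reads just before the canonical start, lay in KMT2E-AS1 on the other strand and could not be assigned to either gene. Within the canonical gene body the tallest peak (chr7:105022821-105022957, 7.39-fold, −log10 q 19.9) had 38 reads in intron 1, with AATAAA. Of the 19 internal peaks, 7 were in intron 1, with 13 to 38 reads, and all 7 preceded the start codon. The tallest transcript-end peak (chr7:105090012-105090225, 12.5-fold, −log10 q 24.8) had 29 reads at an annotated short transcript, after 25.2% of the coding sequence. The last exon held peaks with 19 and 22 reads, where SRPK2 on the other strand also lies. A protein-coding model (ENSG00000289360) also covered the 18-read peak of intron 3.

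SETD5 (chr3:9397615-9479240, plus strand, 23 exons) had 22 peaks, 19 internal and 2 terminal. The tallest (chr3:9403092-9403292, 7.36-fold, −log10 q 18.5) was in intron 1 with 35 reads, beside 32 reads at the canonical end (chr3:9478031-9478149, 12.9-fold, −log10 q 27.3). It was the member with the highest share of internal peaks carrying a hexamer among those with at least 5, 14 of 19, and 8 of these had AATAAA. Of its internal peaks, 5 lay before the start codon and 11 after the SET stretch. No other gene lay at any of the 22 peaks.

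SETD2 (chr3:47016428-47164113, minus strand, 21 exons) had 29 peaks, 27 of them internal. Its end (chr3:47016426-47016548, 12.7-fold, −log10 q 25.1) had 29 reads, and its tallest intronic peak (chr3:47135841-47135979, 10.9-fold, −log10 q 19.4) had 24 reads in intron 1. A pair of transcript-end peaks with 19 reads each lay at annotated short transcripts after 53.8% and 56.7% of the coding sequence. A coding-exon peak (chr3:47097922-47098094, 11.1-fold, −log10 q 18.1) had 21 reads after 66.2% of the coding sequence, and an intronic one at 109.36 kb had 18. The remaining internal peaks had at most 16 reads. Of the 27, 17 lay downstream of the SET stretch. No other gene lay at these 29 peaks either.

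NSD1 (chr5:177131830-177300213, plus strand, 23 exons) had 30 peaks, 25 internal and 4 terminal. Its second intron, of 55.9 kb and 36.4% of the intron length, held 10 of the 20 internal peaks that lay in introns. Its tallest intronic peak (chr5:177137991-177138102, 5.69-fold, −log10 q 11.5) was among them, with 27 reads. The tallest internal peak had 29 reads in a coding exon (chr5:177204155-177204334, 18.4-fold, −log10 q 34.4). The tallest transcript-end peak (chr5:177295660-177295760, 5.01-fold, −log10 q 7.78) had 20 reads and an AATAAA, at an annotated end 0.26 kb after the stop codon. The other 3 terminal peaks, with 17, 18 and 19 reads over the long 3′ UTR, had no hexamer, so the 4 terminal peaks of NSD1 differed little in height. The peak past the end, with 25 reads, also lay in RAB24 on the other strand, and 2 low peaks of intron 14 in a noncoding gene model (ENSG00000286634).

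The SET stretch used here is a conserved run of residues at the core of the SET domain, found once in each of the 10 translated canonical transcripts. It lay at 98.4% of the codons in KMT2A, 97.6% in KMT2B, 98.7% in KMT2C, 98.8% in KMT2D, 96.3% in SETD1A and 96.8% in SETD1B. In NSD1 it lay at 74.9%, in SETD2 at 63.4%, in SETD5 at 24.2% and in KMT2E at 21.9%. In the 6 genes where it is C-terminal, all 71 internal peaks came before it, so a transcript that ended at any of them would lack these codons. That count follows from where the domain lies and is no feature of the peaks. In the other 4 genes, 57 of 90 internal peaks (63.3%, 53.0 to 72.6) came before it. These were 24 of 25 in NSD1, 15 of 19 in KMT2E, 8 of 19 in SETD5 and 10 of 27 in SETD2. The remaining peaks of SETD2, SETD5 and KMT2E would leave the SET codons in place and remove sequence downstream of them, such as the region of SETD2 that binds RNA polymerase II.

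The coding sequence upstream of internal peaks varied widely between the genes. The same shares over all detected genes were not counted, so the values below are descriptions and no feature of these members. Of the 161 internal peaks, 58 (36.0%, 29.0 to 43.7) had less than 10% of the coding sequence upstream, and 15 had none. The median internal peak of KMT2E had 1.27% of the coding sequence upstream and that of KMT2C 4.88%, whereas the median was 66.8% in SETD2. Of the 134 internal peaks placed in canonical introns, 35 (26.1%) were in the first intron. By gene, this share exceeded the first intron's share of intron length in KMT2C (41.9% against 27.1%), KMT2E (46.7% against 25.4%), SETD1B and NSD1. It was the lower in KMT2A (36.4% against 43.2%), SETD2 (19.0% against 26.7%), SETD5 (22.2% against 36.0%), KMT2B, KMT2D and SETD1A. The 35 first-intron peaks had a median of 16 reads, with quartiles of 11.5 and 25.5. The 99 in later introns had a median of 13 reads, with quartiles of 11 and 17. The 13 peaks in coding exons had a median of 17 reads.

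**Figure D3:**
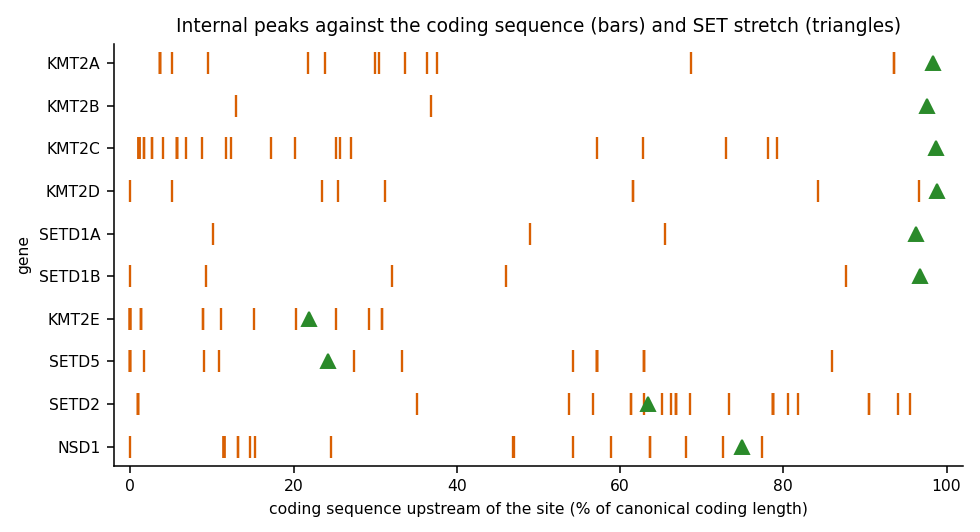
Share of the canonical coding sequence that lies upstream of each internal peak, in % on the x axis, for each gene on the y axis. Bars are peaks and triangles are the SET stretch, which lies right of every bar in the 6 genes at the top and to the left of some bars in KMT2E, SETD5, SETD2 and NSD1.

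Hexamers were less frequent at these peaks than over all peaks of detected genes. In the 100 bp before the 3′ edge, 105 of 201 peaks (52.2%, 45.4 to 59.0) had at least 1 of the 12 hexamers, against 63.1% of all pairs. AATAAA was present at 40 peaks (19.9%, 15.0 to 26.0), against 30.9% of all pairs. At intronic peaks, 54 of 112 (48.2%, 39.2 to 57.4) had a hexamer, against 57.4% of intronic pairs. On the opposite strand, which serves as a background, 37.8% of the member peaks had one, against 43.8% of all pairs. Terminal peaks had a hexamer in 15 of 23 cases (65.2%, 44.9 to 81.2), 11 of them with AATAAA. Internal peaks had one in 84 of 161 cases (52.2%, 44.5 to 59.7), 29 with AATAAA, 22 with AAGAAA, 20 with ATTAAA and 17 with AATGAA. Of the other hexamers searched, TATAAA was at 12 internal peaks, AATATA at 9, CATAAA at 7, GATAAA at 7, AGTAAA at 5, AATAGA at 5, ACTAAA at 4 and AATACA at 3, and a window could hold more than 1 kind. AAGAAA and AATGAA were found at 0 of 23 terminal peaks, a count that allows a share of up to 13.0%. Internal peaks with and without a hexamer differed little in height, with medians of 13.5 and 14 reads.

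A-rich sequence was also present at many internal peaks. Sequence with 22 or more A among 25 bases, within 50 bp downstream of the edge, 1 of the 2 criteria the study used together to remove peaks, was present at 7 of 201 peaks (3.48%, 1.70 to 7.01). Of these, 5 also lacked a hexamer and so met both. Such sequence was present at 3 of 112 intronic peaks, against 5.61% of all intronic pairs. At least 18 A in 25 were found at 37 of 112 intronic peaks (33.0%, 25 to 42.2), against 27.4% of intronic pairs. When 50 bp on either side of the edge were searched, 51 of 112 (45.5%, 36.6 to 54.8) had such a stretch, against 45.3%. Internal peaks had one downstream in 47 of 161 cases (29.2%, 22.7 to 36.6) and terminal peaks in 0 of 23. On either side, the counts were 67 of 161 (41.6%) and 3 of 23. Internal peaks with at least 18 A downstream had a median of 12 reads, and those without had 16. Altogether, 70 of 161 internal peaks had a hexamer and no such stretch downstream, 14 had both, 33 had the stretch alone and 44 had neither. How many internal peaks came from priming on A-rich sequence was not tested.

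**Figure D4:**
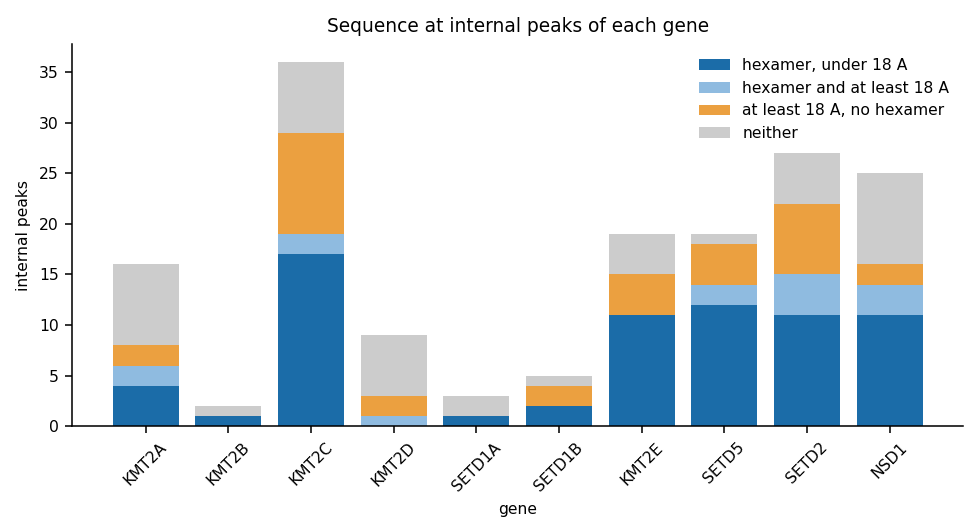
Number of internal peaks (y axis) of each gene (x axis), split by whether the 100 bp before the 3′ edge hold a hexamer and whether at least 18 A in 25 bases lie within 50 bp downstream. The hexamer-only group is largest in KMT2C with 17 peaks, whereas KMT2D has none in that group and 6 of 9 with neither.

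Longer genes held more intronic peaks, and the members were read against detected genes of similar length, as above. KMT2C had 24 intronic peaks against a median of 18 in such genes, the 64.2th percentile, and KMT2E had 22 against 14, the 82.0th percentile. Counting the canonical body of KMT2E alone, it had 12 against 9. SETD2 and NSD1 had 18 each, against medians of 13 and 14. SETD5 had 9 against 7, KMT2A 7 against 8, KMT2D 6 against 4, SETD1B 5 against 3, SETD1A 3 against 3 and KMT2B 0 against 2. The highest of these percentiles was 85.0, for SETD1B, and the lowest 8.13, for KMT2B. The members thus lay inside the range of other genes of their length, and 8 of 10 were above the 50th percentile.

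**Figure D5:**
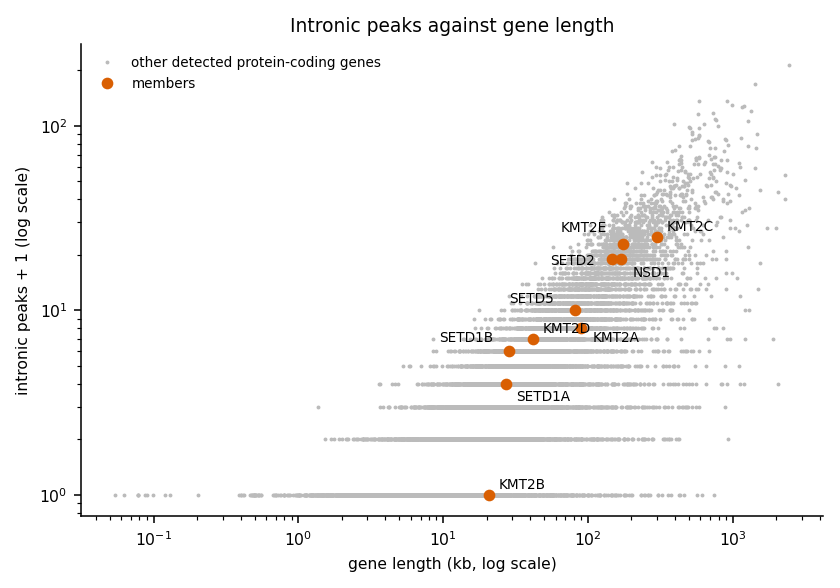
Intronic peaks plus 1 (y axis, log scale) against gene length in kb (x axis, log scale) for the 12834 detected protein-coding genes. Grey points are other genes and orange points are the members, which lie within the grey cloud, from KMT2B with 0 intronic peaks to KMT2C with 24.

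Base composition divided the members. KMT2B, KMT2D, SETD1A and SETD1B had 54.5% to 59.8% GC over the gene, at the 89.7th to 95.6th percentile of genes of similar length, and the other 6 had 38.7% to 42.6%. AATAAA occurred 0.0731 times per kb in SETD1A, 0.143 in KMT2B, 0.263 in KMT2D and 0.454 in SETD1B on the gene's strand, below the medians of 0.616 to 0.765 in genes of their lengths. SETD5 had the highest value, 1.21 per kb. The U1 motif GGTGAG was counted together with the like forms GGTAAG and also GTGAGT, which resemble 5′ splice sites and may overlap one another. In sum they occurred 2.1 times per kb in KMT2D and 1.87 in KMT2B, at the 99.7th and 97.9th percentiles. They were at 0.481 per kb in NSD1 and 0.511 in KMT2E, at the 4.19th and 9.12th percentiles. KMT2D combined few AATAAA and many U1 motifs with the highest density of intronic peaks among the members, whereas KMT2B, with a like composition, had none. The density of KMT2D rests on 6 intronic peaks, of which 1 remained with a hexamer required.

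Partner genes and other SET domain genes were read in the same way, from lists chosen with results of these data known. Over all protein-coding genes, 64.0% were detected. Of all detected genes, 77.9% had an intronic peak, and in 27.0% the tallest one exceeded the tallest transcript-end peak. All 16 subunits of COMPASS-like and related complexes were detected, 13 of them had an intronic peak and the median was 4 such peaks. In 3 of the 16 the tallest intronic peak exceeded the tallest transcript-end peak. These were BOD1L1, a partner of SETD1A, with 34 against 19 reads, DPY30, a core subunit, with 37 against 31, and PSIP1, which tethers KMT2A and menin to chromatin, with 40 against 36. By the canonical transcript the order turned in DPY30, with 16 reads at the tallest internal peak against 31 at the tallest terminal one. Of 25 other SET domain methyltransferase genes, 24 were detected, all but the muscle gene SMYD1, and 22 had an intronic peak, with a median of 5. In 5 of the 24 the tallest intronic peak was the taller, namely SETD4 with 39 against 16 reads, ASH1L with 36 against 26, EZH2 with 28 against 22, SETD9 with 23 against 19 and SETD7 with 34 against 32. By the canonical transcript the order turned in SETD4, with 14 internal against 16 terminal reads. The members had a median of 8 intronic peaks and all detected genes a median of 3, but the members' median length was 86.0 kb and that of all detected genes 35.0 kb. Per kb of intron, the medians were 0.136 in the members, 0.134 in the complex subunits, 0.140 in the other SET genes and 0.0955 in all detected genes.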

How the data were processed

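Poly(A) 3′-sequencing was measured in 6 IMR-32 libraries. The authors mapped the reads to GRCh38 with STAR 2.5.1b, merged them and called peaks with MACS2 2.1.1, extending reads to 100 bp, without a control. Tool versions are from the submitters' processing notes and the study's methods. The deposited columns used were the fold enrichment (a ratio to local background), the −log10 p-value and q-value of the summit and its offset, and the deposited score was not used. Reads at the summit were solved from the deposited fold and −log10 p (largest misfit 0.000172) and tested on simulated peaks. Reads with up to 20 placements were kept by the authors. Genes were those of Gencode release 44, a later release than the study's. All 10 members are named, with the tallest transcript-end and intronic peak of each, and from 2 lists of related genes those whose intronic peak was the taller, at most 5 a list. Members and lists were chosen with earlier results of these data known. The 12 hexamers were those of the study's methods. The SET stretch was an aromatic residue, isoleucine or methionine, asparagine or arginine, histidine or arginine, serine or cysteine, cysteine, any residue, proline and asparagine. Tyrosine was allowed at its start after KMT2C and KMT2D had no match with phenylalanine alone. The grouping into internal and terminal peaks, the count of 31-base copies and the A stretch on either side were also added after the data were seen. Repeats were not analysed here. Python 3.11.15, NumPy 2.4.6, SciPy 1.17.1, pandas 2.3.3, pysam 0.24.0 and Matplotlib 3.10.9 were used. No test was run, since 1 pooled list has no replicates. Sequences are from the GRCh38 reference, and some are not reported here.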

Additional observations from a re-analysis of the deposited data

How the results depend on the processing

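No paired analysis was possible because the reads were merged before peaks were called, and no replicate could be left out either. With −log10 q of at least 20, 16 member peaks remained, 4 of them intronic (25%). Without a cutoff the counts were 259 and 151. With the canonical transcripts alone, 70.5% of the peaks were intronic. With a hexamer required, 54 intronic peaks remained, and without those with at least 18 A in 25 downstream, 75. Without the latter peaks, the tallest intronic peak exceeded the tallest transcript-end peak in 4 genes (KMT2C, KMT2E, SETD5 and NSD1), so KMT2D was lost. By the deposited fold enrichment, the tallest intronic peak exceeded the tallest transcript-end peak in 2 genes, KMT2D and NSD1, in place of 5. By the same measure the tallest internal peak exceeded the terminal one in 6 genes (KMT2A, KMT2B, KMT2C, KMT2D, KMT2E and NSD1), so KMT2A and KMT2D were added and SETD5 was lost. Without peaks where another gene also lies, the tallest internal peak exceeded the terminal one in 3 of 5 genes (KMT2C, SETD5 and NSD1). Without peaks with at least 18 A in 25 on either side of the edge, it did so in KMT2C, KMT2E, SETD2 and NSD1, so KMT2B and SETD5 were lost and SETD2 was added. The share of member peaks with a hexamer was 19.9% for AATAAA alone, 27.9% for AATAAA or ATTAAA, 34.8% in 100 bp ending at the summit and 38.8% in 50 bp ending at the 3′ edge. The A-rich share was 24.4% at 18 A in 25 downstream and 36.3% on either side. The cause of these shifts was not tested beyond what each setting leaves out. With transcript-end windows of 100 bp, 37 of the 59 transcript-end peaks remained and 59.7% of the peaks were intronic. Leaving out peaks with copies at several places and merging peaks closer than 200 bp moved the count of member peaks by less than 1.5 times. The planned measure of repeats was not run. Peaks near the floor of 7 reads are not shown to differ from one another at this depth.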
